A study of Homo sapiens with 14 samples.

Results

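The genes of the EGF receptor family were examined on 14 GeneChip Human Gene 1.0 ST arrays of gastric carcinoma cells, a type of microarray that gives 1 value per probe set, a group of probes read together. The 9 members were taken by symbol from the array's annotation: the receptors EGFR, ERBB2 and ERBB3, the ligands AREG, EREG, HBEGF, TGFA and EPGN, and the intracellular inhibitor ERRFI1. A probe set with its symbol as the only one was found for 8 of the 9, out of 18417 genes so named. AREG had none and was not analysed here. A filter on dim genes, a mean log2 level of at least 5.90, kept 6 members among 11050 genes; EREG and EPGN lay below it and are given as values without a test. Each of the 8 members rests on 1 probe set, and because probe sets differ in brightness, levels were not compared between genes.

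The study asked what happens during epithelial-mesenchymal transition (EMT), in which epithelial cells lose their junctions and become motile, and what the secreted protein ANGPTL4 contributes. The arrays come from a single human gastric carcinoma line, which the labels name MKN28 and the paper MKN74. Parental cells were untreated for 2 days, kept at 1% oxygen for 1 or 2 days, or given 10 ng/mL of TGFβ1 for 1 or 2 days. A derivative with a Snai1ER transgene, which encodes the EMT factor Snai1 joined to an oestrogen receptor domain, was untreated for 4 days or given the drug that activates the fusion, 4-hydroxytamoxifen (4-OHT, 20 ng/mL), for 2 or 4 days. Each of the 6 treated states was also measured with ANGPTL4 knocked down. The sample names do not give the method. The paper describes an inducible short hairpin RNA in the Snai1ER line and small interfering RNA in MKN74 cells, and its main text ties neither to these arrays. Neither untreated array has a knockdown partner, and what drives the Snai1ER transgene is not given in the sources used here. Every condition is 1 array, so a difference between single arrays has no replicate check. The untreated arrays match only the later time point of each treatment. At the earlier one, treatment and days of culture cannot be told apart.

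EGF family ligands are made as membrane-bound precursors that metalloproteases cut free. A released ligand binds EGFR, EGFR pairs with itself or with ERBB2 or ERBB3, and the pair signals through the RAS-MAPK and PI3K-AKT pathways. ERBB2 binds no ligand of its own, ERBB3 has a weak kinase and docks PI3K, and ERRFI1 (also called MIG6) is a feedback inhibitor that blocks the EGFR kinase and is itself induced by EGFR signalling. In the gastric epithelium the pathway drives growth and repair.

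All 8 epithelial markers on a fixed list lay above the filter, as did 1 of 6 fibroblast markers, 0 of 4 measured leukocyte markers and 0 of 4 endothelial markers. SNAI1 levels (log2) ran from 4.76 to 6.19 in the 9 parental samples and from 8.80 to 9.85 in the 5 that carry the transgene. The ANGPTL4 probe set did not separate the knockdown arrays, with quantile-normalized levels of 5.08 to 5.39 on the 6 with knockdown and 4.97 to 5.37 on the 6 without, so the knockdown labels were not checked by the target. The 2 TGFβ1 arrays without knockdown had median log2 levels of 5.19 and 5.23 over all probe sets, against 6.0 to 6.16 on the other 12. TGFβ1 results are therefore given both as deposited and after quantile normalization, which gives every array the same distribution of values. The knockdown array of hypoxia day 1 was the farthest from the rest: its genes deviated from the average of the remaining arrays with an SD of 0.719, where the corresponding SDs of the other 13 were 0.272 to 0.564. Values without the pair that holds it are given beside several results below. In bulk RNA, fewer cells that express a gene and less RNA per cell cannot be told apart.

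The upstream sequences of the 2 ligands that changed with a treatment are shown first, because HBEGF stood higher under hypoxia and TGFA stood lower under 4-OHT. Each is the stretch of 250 bases before the gene's first RefSeq start, on the gene's own strand (GRCh38.p14), with capitals marking the GC box GGGCGG on either strand, the site of Sp1-type factors.
HBEGF, chr5:140346604-140346853, minus strand: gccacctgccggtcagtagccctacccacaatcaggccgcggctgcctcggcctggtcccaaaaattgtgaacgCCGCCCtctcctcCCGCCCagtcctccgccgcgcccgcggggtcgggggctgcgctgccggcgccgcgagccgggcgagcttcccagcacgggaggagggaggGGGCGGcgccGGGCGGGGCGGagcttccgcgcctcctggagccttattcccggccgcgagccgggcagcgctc
TGFA, chr2:70553827-70554076, minus strand: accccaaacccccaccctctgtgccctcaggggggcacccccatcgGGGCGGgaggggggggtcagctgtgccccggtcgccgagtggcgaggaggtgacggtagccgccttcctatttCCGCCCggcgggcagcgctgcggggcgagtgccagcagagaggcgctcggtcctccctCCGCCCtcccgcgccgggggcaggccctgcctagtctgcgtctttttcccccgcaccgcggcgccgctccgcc
The HBEGF window holds 5 GC boxes, of which the last 2 share 1 base, and the TGFA window holds 3. A GC box occurs in 42.6% of 35116 RefSeq promoters of that length, so its presence is common. The core of the hypoxia response element, ACGTG or GCGTG, occurs in 43.2% of them and in neither window. CAGGTG, the E-box that Snai1 binds, occurs in 17.5% of them: once in the HBEGF window, where it reads cacctg on the printed strand 248 to 243 bases before the start, and not in the TGFA window. The window before a second annotated TGFA start has 1 CAGGTG, 42 to 37 bases before that start, and 1 hypoxia core, 51 to 47 bases before it. These matches describe letters in a window and say nothing about binding in these cells.

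HBEGF encodes heparin-binding EGF-like growth factor, a ligand of EGFR and ERBB4, and lies at chr5:140332843-140346603. Its level was 9.10 (log2, as deposited) in untreated parental cells, 10.35 and 9.92 on days 1 and 2 of hypoxia, and 7.46 and 9.42 on the same days with knockdown. With TGFβ1 it was 8.91 and 9.02, and with knockdown 8.56 and 8.87. In Snai1ER cells it was 8.74 untreated, 8.87 and 9.38 on days 2 and 4 of 4-OHT, and 8.31 and 8.59 with knockdown. The 2 hypoxia arrays without knockdown were the highest of the 14, and the hypoxia day 1 knockdown array was the lowest.

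Hypoxia was compared with the untreated parental array by a rule of size: both days had to differ by 1.5-fold or more, one way. HBEGF was higher by 1.25 and 0.82 (log2 difference), which is 2.38-fold and 1.77-fold, and by 1.26 and 0.91 after quantile normalization. It was the 1 member of the 6 above the filter that passed, against 2.94% of all genes passing upward and 1.71% downward (3.03% and 1.95% after quantile normalization). The median difference of the 6 members was 0.51, against -0.02 over all genes. With knockdown, HBEGF differed from the untreated array by -1.64 on day 1 of hypoxia and by 0.32 on day 2.

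**Figure D1:**
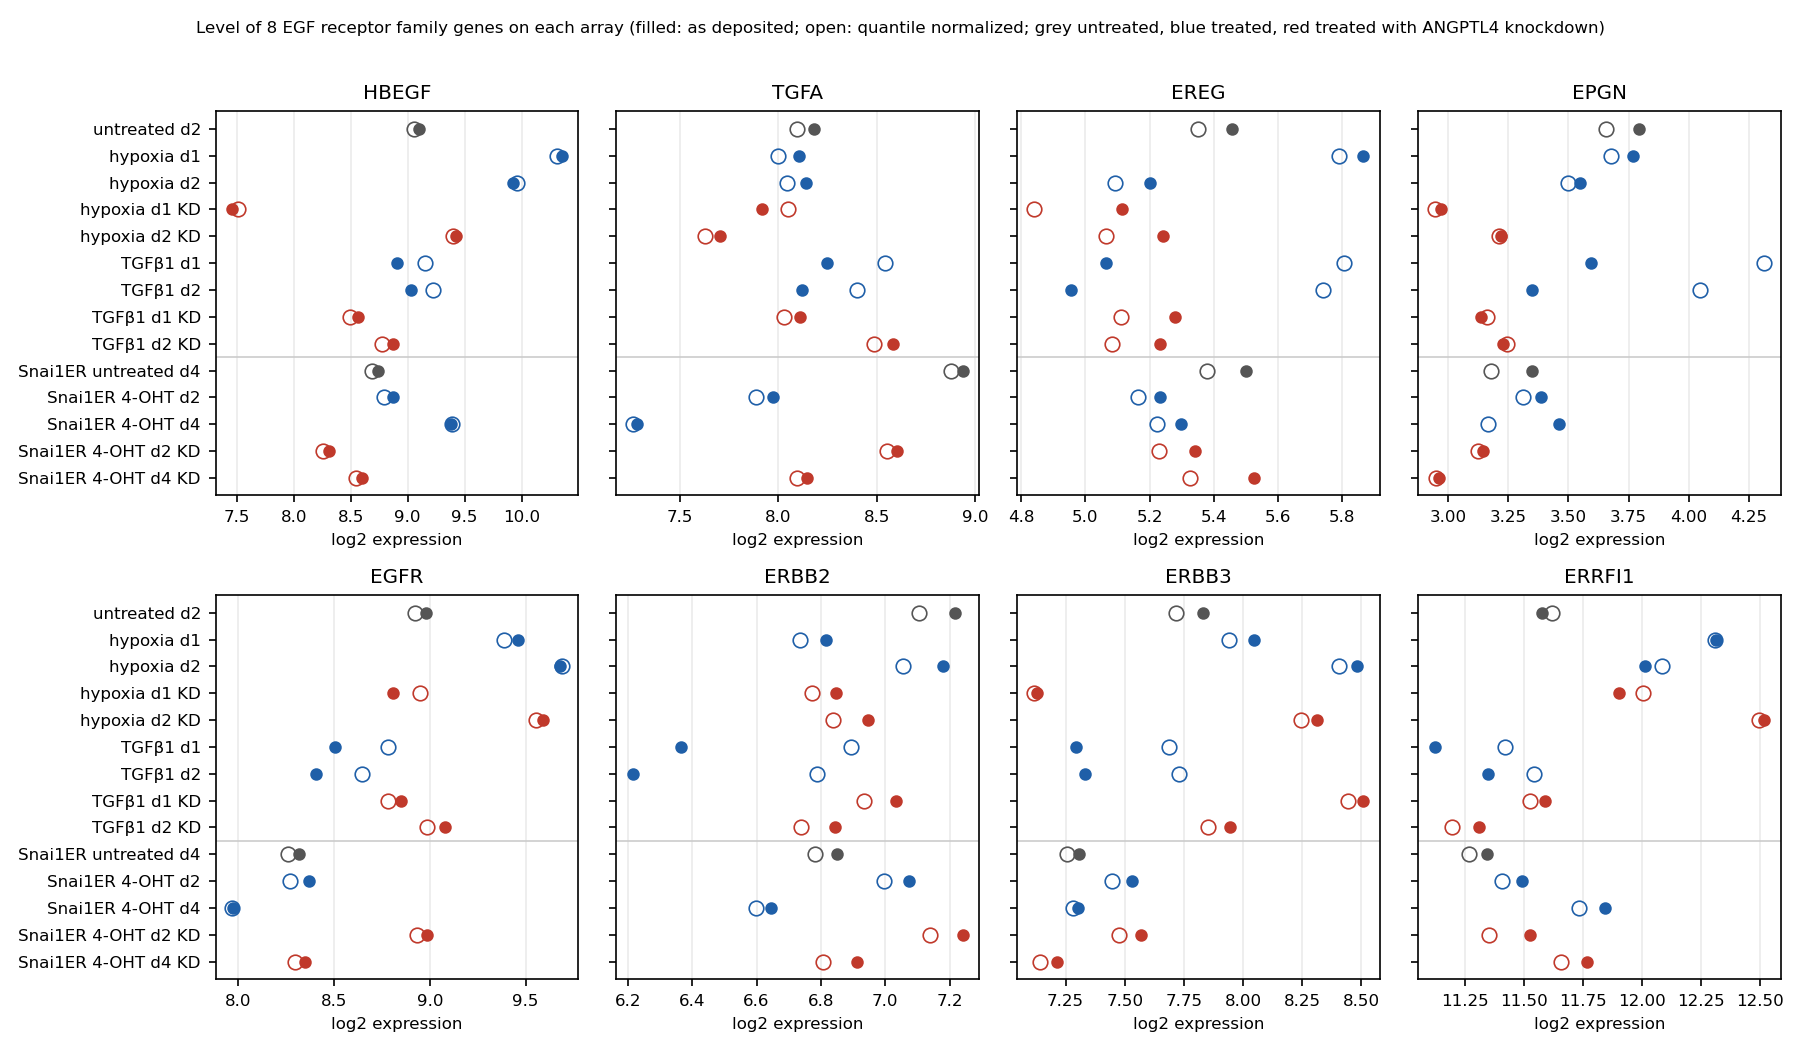
Log2 expression (horizontal axis of each panel) of the 8 measured members on each of the 14 arrays (rows), with filled points as deposited, open points quantile normalized, grey for untreated, blue for treated and red for treated with ANGPTL4 knockdown (KD). HBEGF is highest on the 2 hypoxia arrays without knockdown, TGFA is lowest on day 4 of 4-OHT at 7.28, and filled and open points lie farthest apart on the TGFβ1 arrays without knockdown.

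TGFA encodes transforming growth factor alpha, a ligand of EGFR, and lies at chr2:70447284-70553826. It read 8.94 (log2, as deposited) in untreated Snai1ER cells, 7.98 and 7.28 on days 2 and 4 of 4-OHT, and 8.60 and 8.15 with knockdown. In parental cells it was 8.18 untreated, 8.10 and 8.14 in hypoxia, 7.92 and 7.70 in hypoxia with knockdown, 8.25 and 8.12 with TGFβ1, and 8.11 and 8.58 with TGFβ1 and knockdown. The untreated Snai1ER array was the highest of the 14 and the day 4 array of 4-OHT the lowest.

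TGFA was the 1 member of 6 that passed the size rule with 4-OHT. Its log2 differences from untreated Snai1ER cells were -0.96 on day 2 and -1.65 on day 4, levels of 0.514 and 0.318 times the untreated one, and they were -0.99 and -1.61 after quantile normalization. Over all genes 1.19% passed downward and 2.3% upward (1.21% and 2.34% after quantile normalization). The decrease starts from a high level, since untreated Snai1ER cells stood 0.75 (1.68-fold) above untreated parental cells in TGFA. A difference of at least 1.5-fold upward between those 2 untreated arrays was seen in 4.74% of genes, and they also differ in days of culture. HBEGF was 0.13 and 0.64 above the untreated Snai1ER array with 4-OHT, past 1.5-fold on day 4 alone. With day 4 of 4-OHT taken alone, 2288 of the 11050 genes differed by at least 1.5-fold in either direction. With knockdown, TGFA on 4-OHT differed by -0.33 and -0.79 from the untreated array, which was itself without knockdown.

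EREG and EPGN, which encode the EGFR ligands epiregulin and epigen, were dim. EREG ranged from 4.96 to 5.87 (log2, as deposited) with a median of 5.26, and was highest on day 1 of hypoxia. EPGN ranged from 2.96 to 3.80 with a median of 3.35. Under TGFβ1 both lay below the untreated array as deposited (EREG -0.39 and -0.50, EPGN -0.20 and -0.45) and above it after quantile normalization (EREG 0.45 and 0.39, EPGN 0.66 and 0.39), so no direction can be given for them.

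Of the receptors, EGFR (chr7:55019017-55211628) read 8.98 (log2, as deposited) in untreated parental cells, 9.46 and 9.68 in hypoxia, 8.81 and 9.59 in hypoxia with knockdown, 8.50 and 8.41 with TGFβ1, and 8.85 and 9.08 with TGFβ1 and knockdown. It was 8.32 in untreated Snai1ER cells, 8.37 and 7.97 with 4-OHT, and 8.98 and 8.35 with 4-OHT and knockdown. The 3 highest EGFR levels were hypoxia arrays, with the day 1 knockdown array near the untreated one (-0.17 as deposited, 0.03 after quantile normalization), and the lowest was that of 4-OHT on day 4. In hypoxia EGFR lay 0.48 and 0.70 above the untreated array, past 1.5-fold on day 2 alone. With day 2 of hypoxia taken alone, 1066 of the 11050 genes differed by at least 1.5-fold in either direction. Untreated Snai1ER cells differed from untreated parental cells by -0.66, and 8.11% of genes differed by at least 1.5-fold downward between those arrays.

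ERBB3 (chr12:56080108-56103505) was 7.83 (log2, as deposited) in untreated parental cells, 8.05 and 8.48 in hypoxia, 7.13 and 8.31 in hypoxia with knockdown, 7.29 and 7.33 with TGFβ1, and 8.51 and 7.95 with TGFβ1 and knockdown. The 5 Snai1ER arrays held a narrower range, from 7.22 to 7.57. In hypoxia ERBB3 was 0.22 and 0.65 above the untreated array, so like EGFR it was past 1.5-fold on day 2 alone. That day taken alone, 1066 of the 11050 genes were past it in either direction.

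ERBB2 (chr17:39688094-39728658) varied least among the tested members, with an SD of 0.157 over the 14 arrays after quantile normalization against a median of 0.329 over all genes kept. As deposited it was 7.22 (log2) in untreated parental cells, 6.81 and 7.18 in hypoxia, 6.85 and 6.94 in hypoxia with knockdown, 6.36 and 6.22 with TGFβ1, and 7.03 and 6.85 with TGFβ1 and knockdown. The 5 Snai1ER arrays lay between 6.65 and 7.24. The 2 TGFβ1 arrays without knockdown gave the lowest ERBB2 values, and they are also the 2 arrays with low medians.

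Compared with untreated cells, ERBB2 with TGFβ1 differed by -0.85 and -1.0 as deposited, which passed the size rule, as 32.3% of all genes did downward and 0.452% upward. The median difference over all genes was -0.46. After quantile normalization the ERBB2 differences were -0.21 and -0.32, which did not pass, and 3.26% of genes passed downward and 2.5% upward. The other 5 tested members did not pass on either scale, and for HBEGF the sign turned between them, from -0.19 and -0.07 to 0.10 and 0.17. TGFA differed from the untreated array by 0.07 and -0.06 as deposited and by 0.45 and 0.30 after quantile normalization. With each array centred on its median, the mean differences of the 2 days turned positive for EGFR (0.29), ERBB3 (0.30) and ERRFI1 (0.47), so no direction can be given for these members under TGFβ1. The hypoxia and TGFβ1 comparisons share their 1 untreated array.

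ERRFI1 (chr1:8011727-8026309) was bright on every array. It read 11.58 (log2, as deposited) in untreated parental cells, 12.31 and 12.01 in hypoxia, 11.90 and 12.52 in hypoxia with knockdown, 11.12 and 11.35 with TGFβ1, and 11.59 and 11.31 with TGFβ1 and knockdown. In Snai1ER cells it was 11.35 untreated, 11.49 and 11.84 with 4-OHT, and 11.53 and 11.77 with 4-OHT and knockdown. The 4 hypoxia arrays were the highest of the 14, above all TGFβ1 and Snai1ER arrays. ERRFI1 lay 0.74 and 0.44 above the untreated array in hypoxia, past 1.5-fold on day 1 alone. With day 1 of hypoxia taken alone, 834 of the 11050 genes differed by at least 1.5-fold in either direction.

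**Figure D2:**
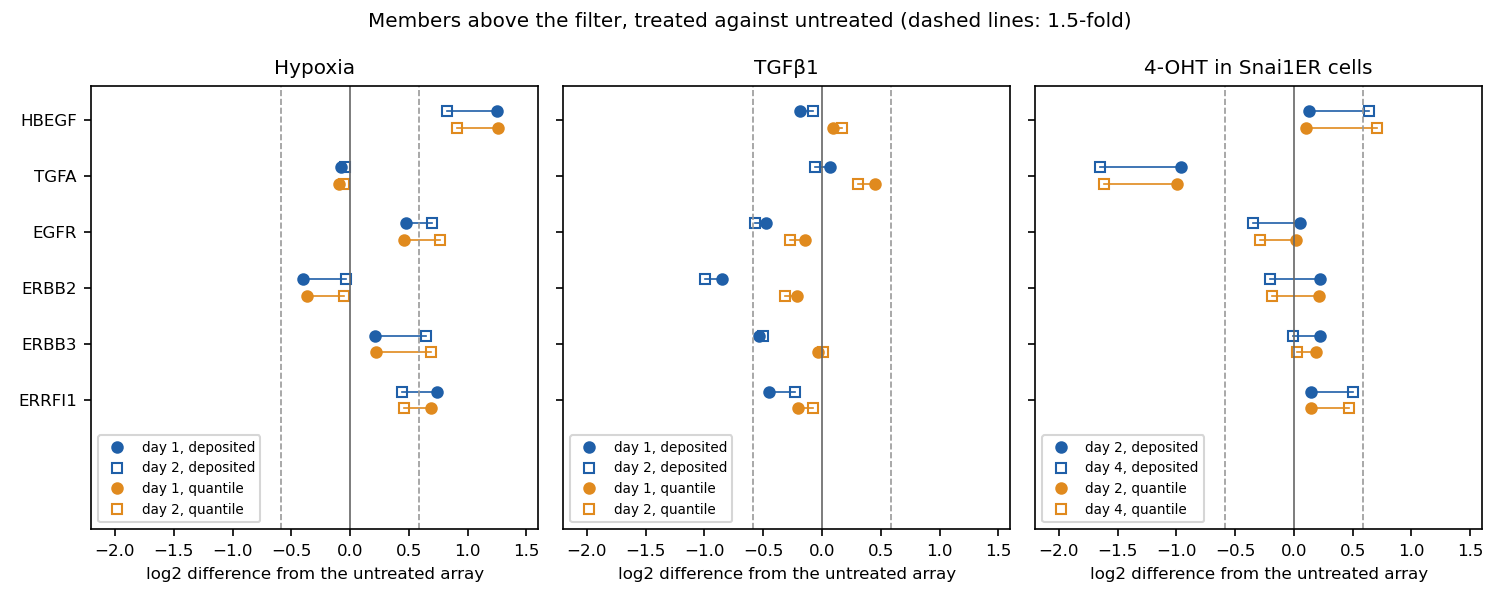
Log2 difference from the untreated array of the same line (horizontal axis) for the 6 members above the filter, with circles for the earlier and squares for the later time point, blue as deposited, orange quantile normalized, and dashed lines at 1.5-fold. HBEGF lies beyond the line at both time points of hypoxia and TGFA at both of 4-OHT on either scale, while ERBB2 lies beyond it with TGFβ1 only as deposited.

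The effect of ANGPTL4 knockdown was tested with limma over 6 pairs of arrays, each with and without knockdown at the same treatment and time. HBEGF was lower with knockdown in 6 of 6 pairs, and the difference did not pass the test after adjustment. The pair differences as deposited were -2.89 and -0.50 on days 1 and 2 of hypoxia and -0.34 and -0.15 with TGFβ1. On days 2 and 4 of 4-OHT they were -0.56 and -0.79. After quantile normalization the hypoxia pairs differed by -2.80 and -0.56, the TGFβ1 pairs by -0.66 and -0.45 and the 4-OHT pairs by -0.54 and -0.85. The day 1 hypoxia pair was the largest by far, and its knockdown array is the one farthest from the rest. The limma difference was -0.87 (log2; SE 0.30, 95% interval -1.51 to -0.23), with a limma adjusted p of 0.226 over all genes by the Benjamini-Hochberg method (0.0112 unadjusted). A lower level in all 6 pairs was seen in 2.73% of genes as deposited and in 8.33% after quantile normalization, and a higher one in 6.71% as deposited.

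Without the day 1 hypoxia pair the HBEGF difference was -0.47 as deposited (limma adjusted p = 0.187). After quantile normalization it was -0.98 with all pairs (limma adjusted p = 0.135) and -0.61 without that pair, where it passed (limma adjusted p = 0.0313) in a fit that called 432 of the 11050 genes, against 99 with all pairs. With each array centred on its median it was -1.23 and also passed (limma adjusted p = 0.0339), as did 1191 genes in all. The direction was the same in all of these, and the call was not.

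In total 0 of 6 members passed the knockdown test in limma, where 0.0452% of genes passed upward and 0.0814% downward, and 1 member against 16.7% of genes had an unadjusted p under 0.05. After quantile normalization those background shares were 0.0905%, 0.805% and 19%, and again 0 members passed and 1 had an unadjusted p under 0.05. EGFR differed by 0.21 (95% interval -0.23 to 0.65), ERBB2 by 0.25 (-0.14 to 0.65), ERBB3 by 0.12 (-0.41 to 0.64) and ERRFI1 by 0.08 (-0.32 to 0.48). These intervals, as deposited, all include 0, and those of the 3 receptors reach past 1.5-fold upward. After quantile normalization EGFR differed by 0.13 (-0.23 to 0.48), ERBB2 by 0.027 (-0.23 to 0.29) and ERBB3 by -0.036 (-0.45 to 0.38), with no bound past 1.5-fold. Without the day 1 hypoxia pair the EGFR difference as deposited was 0.38 and that of ERBB3 0.32, and neither passed. After quantile normalization those differences were 0.24 and 0.12, and again neither passed. EPGN, below the filter and not tested, was lower in 6 of 6 pairs. Its differences ran from -0.80 to -0.12 as deposited and from -1.15 to -0.19 after quantile normalization. It was dim on all arrays, and the shares of genes lower in all 6 pairs cover only genes above the filter.

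**Figure D3:**
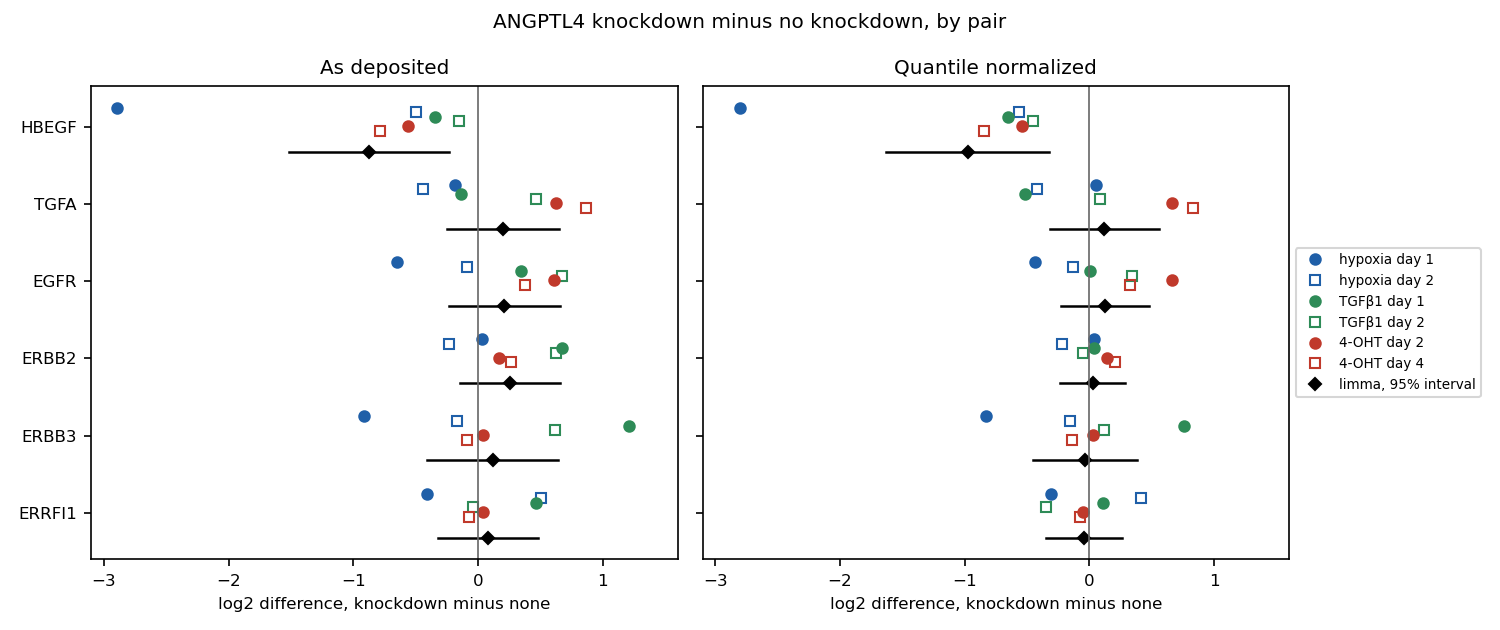
Log2 difference, ANGPTL4 knockdown minus no knockdown (horizontal axis), for the 6 tested members in each of 6 pairs (coloured points), as deposited (left) and quantile normalized (right), with the limma estimate and its 95% interval in black. All 6 HBEGF points lie below 0 in both panels, with the hypoxia day 1 pair at -2.89 as deposited, and the TGFA points of the 2 4-OHT pairs lie above 0.

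TGFA moved in opposite directions with knockdown in several pairs. As deposited it was higher with knockdown by 0.63 and 0.86 in the 2 pairs on 4-OHT. In the 4 parental pairs it differed by -0.19 and -0.44 in hypoxia and by -0.14 and 0.46 with TGFβ1. After quantile normalization the 4-OHT differences were 0.67 and 0.83. Those of the parental pairs were 0.05, -0.42, -0.51 and 0.09 in the same order, so the sign of the day 1 hypoxia pair turned. The interaction of knockdown and line was 0.82 (log2; SE 0.39, 95% interval -0.01 to 1.65; limma adjusted p = 0.576), and 0.94 after quantile normalization (limma adjusted p = 0.335, 0.00907 unadjusted). The interaction thus did not pass. The Snai1ER pairs were all on 4-OHT and the parental pairs on hypoxia or TGFβ1, so line, treatment and time cannot be told apart in it. For this interaction 0 of 6 members passed in limma, and 0 as deposited and 1 (TGFA) after quantile normalization had an unadjusted p under 0.05, against 8.71% and 10.7% of genes; as deposited 0% of genes passed upward and 0.0452% downward.

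TGFβ1 and hypoxia were compared directly in 4 parental pairs matched on day and knockdown, which leaves out the shared untreated array. ERRFI1 was lower with TGFβ1 in 4 of 4 pairs, with differences as deposited of -1.19 and -0.67 on days 1 and 2 without knockdown and of -0.31 and -1.21 with it. After quantile normalization ERRFI1 differed by -0.89 and -0.54 without knockdown and by -0.48 and -1.30 with it. Its limma difference was -0.84 (log2; SE 0.25, 95% interval -1.38 to -0.31; adjusted p = 0.106), and -0.80 after quantile normalization (limma adjusted p = 0.0717). A lower level in all 4 pairs was common, at 20% of genes as deposited and 13.3% after quantile normalization.

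EGFR was lower with TGFβ1 in 3 of 4 pairs as deposited and in 4 of 4 after quantile normalization, with limma differences of -0.67 (adjusted p = 0.194) and -0.60 (adjusted p = 0.129). HBEGF was lower in 3 of 4 pairs, with differences as deposited of -1.44, -0.90 and -0.55, and higher by 1.11 in the pair with the day 1 hypoxia knockdown array. After quantile normalization the HBEGF differences were -1.16, -0.73 and -0.62, and 0.98 in that pair. Without that pair the limma differences as deposited were -0.91 for EGFR (adjusted p = 0.0379), -0.96 for HBEGF (adjusted p = 0.0365) and -1.02 for ERRFI1 (adjusted p = 0.0234), and all 3 passed, in a fit where 1143 of the 11050 genes passed against 236 with all pairs. They also passed without it after quantile normalization, at -0.74, -0.84 and -0.91, together with TGFA at 0.59 (limma adjusted p = 0.0302), where 2032 genes passed against 280 with all pairs. With all 4 pairs 0 of 6 members passed in limma, where 0.462% of genes passed upward and 1.67% downward, and 2 members against 20.5% of genes had an unadjusted p under 0.05 (3 against 21.1% after quantile normalization). The pair left out holds 2 arrays, and leaving out the hypoxia array alone was not run. With a block for each pair that would give the same fit, so these fits cannot tell the 2 arrays apart.

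**Figure D4:**
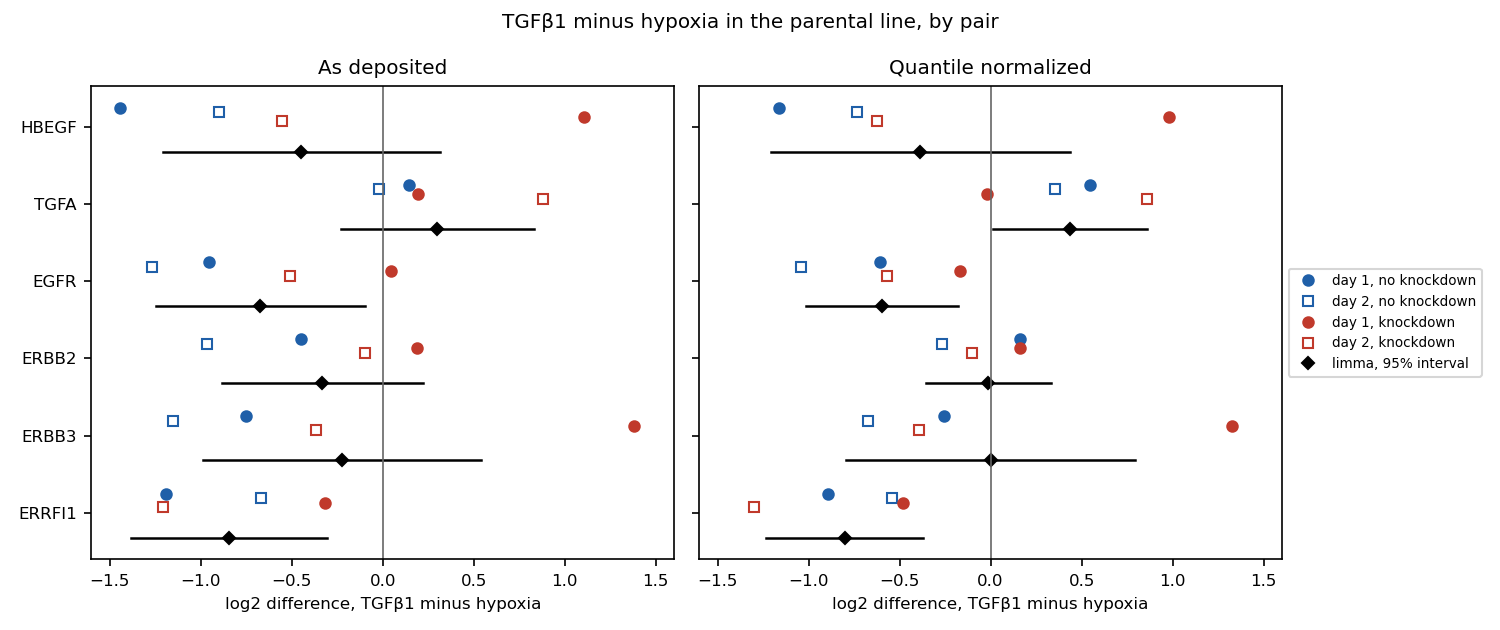
Log2 difference, TGFβ1 minus hypoxia (horizontal axis), for the 6 tested members in 4 parental pairs matched on day and knockdown (coloured points), as deposited (left) and quantile normalized (right), with the limma estimate and its 95% interval in black. All 4 ERRFI1 points lie below 0 in both panels. The day 1 knockdown pair (red circles) lies to the right of 0 for HBEGF, ERBB3 and ERBB2 in both panels, and for EGFR and TGFA only as deposited.

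The later time point was compared with the earlier in 6 pairs of the same treatment and knockdown. In limma 0 of 6 members passed and 0 had an unadjusted p under 0.05, against 1.38% of genes, and 0% of genes passed in either direction. HBEGF was higher by 0.46 at the later time point (95% interval -0.12 to 1.04; limma adjusted p = 0.999), and by 1.97 in the hypoxia knockdown pair, which holds the day 1 array far from the rest. Without that pair it was higher by 0.16.

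A fixed list of 71 other genes of the pathway was followed beside the members, grouped as other receptors and ligands, ligand release, adaptors and ubiquitin ligases, feedback inhibitors, RAS-MAPK, PI3K-AKT and ERK response genes. Of these, 62 had a probe set of their own and 48 were above the filter. Under hypoxia 3 of the 48 passed the size rule upward and 2 downward, beside 2.94% and 1.71% of all genes. The risers were FOS, an immediate-early transcription factor (mean log2 difference of the 2 days 0.84), SPRY1, a Sprouty inhibitor of receptor tyrosine kinase signalling (0.85), and CBLB, a ubiquitin ligase that tags receptors for degradation (0.77). CCND1, which encodes cyclin D1, had a mean difference of -0.82 and LRIG3, a membrane protein related to the receptor inhibitor LRIG1, of -0.80.

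With 4-OHT 4 of the 48 passed upward and 0 downward, beside 2.3% and 1.19% of all genes. FOS stood out, 1.85 above the untreated Snai1ER array on day 2 and 4.59 above it on day 4, and EGR1, another immediate-early transcription factor, was higher by 0.85 and 2.23. SOS2, an exchange factor that loads RAS with GTP, had a mean difference of 0.71, and PIK3R3, a PI3K regulatory subunit, of 0.74. With TGFβ1 0 passed upward and 17 downward as deposited, where 32.3% of all genes passed downward. After quantile normalization 1 passed upward (MYC, 0.68) and 2 downward (EGR1, -0.76, and PIK3R3, -1.23), beside 2.5% and 3.26% of all genes.

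In the direct comparison of TGFβ1 with hypoxia, 1 of the 48 passed upward and 4 downward in limma, beside 0.462% and 1.67% of all genes. CCND1 was higher with TGFβ1 by 1.24 (adjusted p = 0.0267), and the lower genes were FOS at -1.56 (adjusted p = 0.0270), the immediate-early gene IER3 at -1.18 (adjusted p = 0.0379), EGR1 at -1.15 (adjusted p = 0.0284) and CBLB at -1.09 (adjusted p = 0.0424). After quantile normalization FOS no longer passed and the other 4 did, beside 1.53% of all genes upward and 1% downward. In limma 0 of the 48 passed for knockdown, for knockdown by line or for time. These genes were listed with earlier results of the same arrays known, and the counts describe the list only.

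The genes whose pattern over the 14 arrays lay closest to a member were found for the 3 members with the largest SD, as the smallest root mean square difference of quantile-normalized log2 values after each gene's mean was removed. For HBEGF they were NCOA7 (0.290), FBXO42 (0.300) and CFAP53 (0.302), against a median of 0.745 over all genes. For EGFR they were FNDC3B (0.178), UBN2 (0.228) and TFRC (0.228), against 0.592. For ERBB3 they were CYTH3 (0.192), ABLIM1 (0.192) and NIBAN2 (0.214), against 0.538. NCOA7, a nuclear receptor coactivator, had its highest level, 8.89, on day 1 of hypoxia and its lowest, 6.81, on the knockdown array of that day, the same arrays as HBEGF. FBXO42 (6.04) and CFAP53 (5.38) were also lowest on that knockdown array, the one farthest from the rest. These genes were picked for closeness to HBEGF on the same arrays, so the shared extremes follow from the choice.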

How the data were processed

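RNA of 14 conditions was hybridised to 1 array each. The deposited values are log2 expression made by the authors with RMA in Partek, per the submitters' processing notes; versions are not given in the sources used here. Of 33297 probe sets, 19460 had 1 gene symbol, 1754 several and 12083 were not listed; probe sets of a gene were averaged to 18417 genes, 769 of them with several, and a mean at or above the 40th percentile kept 11050. R 4.3.3, limma 3.58.1 and data.table (1.17.8) were used, with quantile normalization over the 14 arrays as a second scale. Treatments were compared with 1 untreated array by size alone. The limma fits (lmFit, eBayes) used pairs as blocks, with 5 residual degrees of freedom for knockdown and for time, 4 for the interaction and 3 for TGFβ1 against hypoxia, a Benjamini-Hochberg threshold of 0.05, and were tested on simulated data. Nothing says that arrays came from separate cultures, so p-values measure only the spread between these arrays, whose number limits the precision. Pairs come from the labels. Named genes are all members, up to 4 called genes per pathway list with the largest differences, SNAI1, ANGPTL4 and the 3 nearest genes of 3 members. Members and lists were chosen with earlier results of these data known. Gene positions and promoters are RefSeq's (GRCh38.p14). Alternatives covered scaling, filter, probe sets, fold, time point, variance model, array weights, block and leaving out pairs.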

Additional observations from a re-analysis of the deposited data

How the results depend on the processing

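Each treatment count is of 1 array against 1, and 1 pair can decide a fit. HBEGF under hypoxia and TGFA under 4-OHT kept their calls under the other scalings. Filters and probe set choices could not change their differences, because each member rests on 1 probe set and the rule reads each gene alone. The 0 of 6 members for time kept its call under the other scalings, filters and probe set choices. With a 2-fold rule 0 members passed in any treatment. Hypoxia gave 2 members at the earlier and 3 at the later time point alone, and 4-OHT gave 2 at the later. With TGFβ1, 0 passed after quantile normalization and 2 (HBEGF and TGFA, both higher) after median centring. For knockdown, median centring gave 1 (HBEGF) and leaving out each pair 0 to 1. For TGFβ1 against hypoxia, median centring gave 1 (TGFA), array weights 5, and leaving out each pair 0 to 4. Genes called overall moved with the setting. Knockdown gave 14, against 99 with quantile normalization, 1191 with median centring, 35 with no filter, 28 with a trend, 38 with array weights, 4 without the pair block and 2 without the TGFβ1 pairs. The interaction gave 5, against 0 with either scaling, 14 with no filter, 9 with a trend and 1268 with weights. TGFβ1 against hypoxia gave 236, against 1185 with median centring, 376 with no filter and 7276 with weights. By size, hypoxia gave 514, against 103 at 2-fold and 834 or 1066 at 1 time point; TGFβ1 3615, against 636 with quantile normalization, 8448 with no filter and 967 at 2-fold; and 4-OHT 385, against 92 at 2-fold and 624 or 2288 at 1 time point. The cause was not tested.

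In the limma fits, signs turned as follows, with no call on either side (log2). For knockdown, quantile normalization gave ERBB3 -0.036 and ERRFI1 -0.044, median centring EGFR -0.14, ERBB2 -0.10, ERBB3 -0.24, TGFA -0.15 and ERRFI1 -0.27, and the fit without the TGFβ1 pairs ERBB3 -0.28. For the interaction, ERBB2 was 0.22 with quantile normalization, median centring gave ERBB2 0.34, ERBB3 0.18 and ERRFI1 0.24, and array weights HBEGF -0.32. For TGFβ1 against hypoxia, median centring gave ERBB2 0.10 and ERBB3 0.21. For time, array weights gave ERBB3 -0.030 and the fit without the TGFβ1 pairs EGFR -0.0081. Leaving out each pair on both scales, knockdown ranged from -0.14 to 0.18 for ERRFI1, -0.19 to 0.32 for ERBB3, -0.0091 to 0.35 for ERBB2 and -0.024 to 0.33 for TGFA; the interaction from -0.34 to 0.65 for HBEGF, -0.23 to 0.26 for ERBB2, -0.33 to 0.12 for ERRFI1 and -0.58 to 0.23 for ERBB3; TGFβ1 against hypoxia from -0.76 to 0.22 for ERBB3 and -0.50 to 0.073 for ERBB2; and time from -0.14 to 0.15 for EGFR and -0.13 to 0.23 for ERBB3.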
